A study of Mus musculus with 12 samples.

Results

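Blood vessel endothelial nuclei were examined across 4 mouse fat depots in 12 single-nucleus RNA sequencing libraries. A nucleus was counted as endothelial when it held at least 3 UMIs, unique molecular identifiers that each stand for 1 captured RNA molecule, of Pecam1, Cdh5, Flt1, Ptprb, Cyyr1 and Adgrl4 together, with at least 2 of these genes seen. That sum also had to exceed the sum of 8 genes of other cell types (Adipoq, Plin1, Plin4, Acsl1, Lama2, Dcn, Mrc1 and Epcam), and the lymphatic genes Prox1, Mmrn1 and Reln had to be at 0. The nuclei were thus chosen by measured UMIs, and so the levels of these 17 genes are given only as a description. Barcodes with fewer than 300 genes, or with over 10% of UMIs from mitochondrial genes, were set aside first. The rule found 4676 endothelial nuclei among 106898 kept nuclei, or 4.37%.

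All mice were male C57BL/6J animals on normal chow, and no group carried a mutation or a transgene. The depots are labelled iBAT, mPRAT, lPRAT and iWAT, abbreviations that usually stand for interscapular brown, medial perirenal, lateral perirenal and inguinal white adipose tissue. At 22 °C there were libraries of iBAT and mPRAT at 1, 2 and 6 months, of lPRAT at 2 and 6 months and of iWAT at 6 months. At 4 °C for 3 days there were libraries of iBAT, mPRAT and iWAT at 6 months. The 6-month libraries carry that age in their titles and 16 weeks in their age field. Each of these 12 groups was 1 library of sorted nuclei, and the number of mice in a library is not given in the sources used here. The series set out to compare brown and white depots at several ages and the response of each depot to cold.

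Endothelial cells line blood vessels. In fat, capillary endothelium holds lipoprotein lipase on the anchor GPIHBP1, takes up fatty acids with CD36 and hands them on with the carriers FABP4 and FABP5. VEGF and angiopoietin receptors (Flt1, Kdr, Tek, Tie1) govern vessel growth, PDGF-B from endothelium recruits pericytes, and arterial and venous cells differ in Notch and Nr2f2 programmes.

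The endothelial label was checked against 20 endothelial genes outside the rule, among them Emcn, Tek, Kdr, Erg, Tie1 and Esam. Their summed level was between 4487 and 7729 CPM (counts per 1000000 UMIs summed over the endothelial nuclei of a library) and between 65.2 and 167 CPM in the other kept nuclei. Within a library the endothelial nuclei were 29.8 to 119 times higher. Of the genes that chose the nuclei, Flt1, which encodes VEGF receptor 1, ranged from 1168 CPM in iWAT at 22 °C to 3114 CPM in iBAT at 1 month. The 8 genes of other cell types summed to 436 to 1077 CPM in endothelial nuclei against 2548 to 5572 CPM elsewhere, so they were lower but above 0 in every library. At the edge of the rule, 276 nuclei had exactly 3 UMIs of the 6 genes and an endothelial level outside the rule of 5010 CPM. In mPRAT at 6 months and 22 °C the 20 such nuclei had 40 UMIs of the endothelial genes outside the rule among 36376 UMIs in all, a lower level. The 165 nuclei with 2 such UMIs, which just missed it, had 2498 CPM. Another 541 nuclei were left out because the other cell types' genes tied or led, and had 1331 CPM. The largest set left out was 1424 nuclei in which 1 rule gene alone was seen, 1174 of them in mPRAT at 6 months and 22 °C, with 250 CPM over the whole set. The level differed between libraries. These nuclei had 61 UMIs of the endothelial genes outside the rule among 14312 UMIs in iBAT at 1 month, and 53 among 14862 in mPRAT at 1 month. In iWAT at 22 °C they had 79 among 327462. The 75 nuclei left out for a lymphatic UMI had 4322 CPM.

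Depth differed between libraries. Summed UMIs of the endothelial nuclei ran from 29206 in lPRAT at 2 months, which held only 23 endothelial nuclei, to 1291732 in iBAT at 1 month. Median UMIs per endothelial nucleus ran from 861 in lPRAT at 2 months to 2105.5 in mPRAT at 6 months. A single UMI was worth 34.2 CPM in the younger lPRAT library, so its levels of single genes are coarse. In cold mPRAT 66.0% of barcodes exceeded the mitochondrial limit, and 123 endothelial nuclei remained. The mPRAT library at 6 months and 22 °C carried lymphocyte genes at 2926 CPM in its endothelial nuclei and 3544 CPM in its other nuclei, against 48.9 to 877 CPM in the endothelial nuclei of the other 11 libraries. Libraries shared at most 75 cell barcodes per pair, and 3 endothelial barcodes were shared in all.

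The share of nuclei that met the rule is a description, since the rule itself sets it. Youngest iBAT had the highest share, 8.90% (exact 95% interval 8.38 to 9.43), followed by 5.32% at 2 months, 2.30% at 6 months and 3.79% in the cold library. The mPRAT shares were 6.62% for the youngest animals (5.97 to 7.32), then 3.33% and 3.22% with rising age, and 3.25% for cold. The lPRAT shares were 0.701% for the younger and 5.15% for the older library. For iWAT they were 3.12% at 22 °C and 7.90% after cold. The intervals cover counting error only. Cold iWAT thus stood 4.78 percentage points above its 22 °C library (95% interval 3.93 to 5.64), cold iBAT 1.49 points above (1.10 to 1.88), and cold mPRAT 0.0284 points above (-0.637 to 0.694). With nuclei of at least 1000 UMIs thinned to that number and shallower ones left out, the cold differences were 1.66 points in iWAT and 2.26 points in iBAT. The nuclei kept there were 7057 of 8280 in iWAT at 22 °C and 3959 of 4949 after cold, so the loss differed between the libraries compared. Counting only endothelial nuclei with 0 UMIs of the 8 genes of other cell types, they were 3.88 points in iWAT, 0.0849 points in iBAT and 0.818 points in mPRAT. By that count cold iWAT had the highest share, 4.87%, and iBAT at 1 month had 4.83%. Under such a rule fewer endothelial nuclei cannot be told apart from less endothelial RNA per nucleus.

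**Figure D1:**
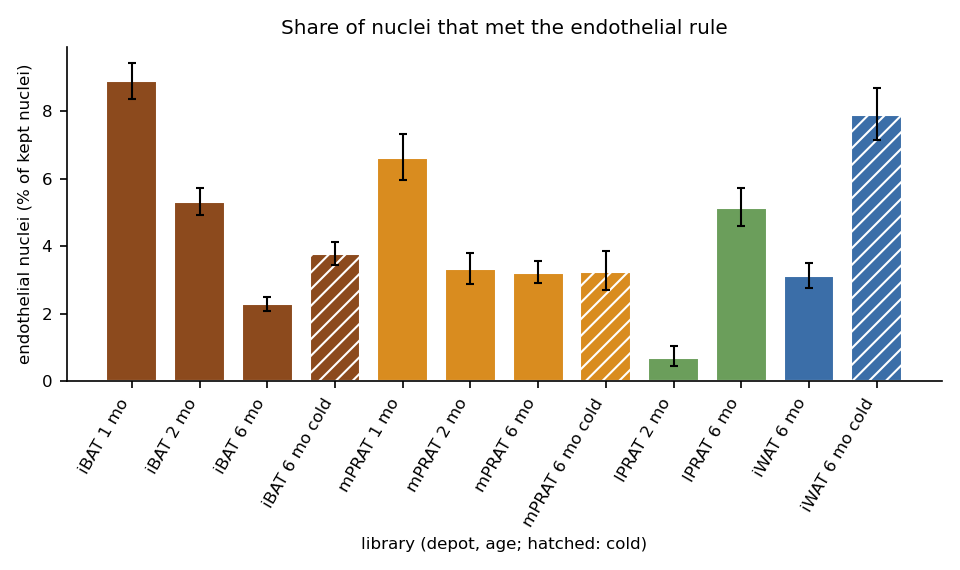
Percentage of kept nuclei that met the endothelial rule in each of the 12 libraries, with exact 95% binomial intervals. Bars are coloured by depot and hatched for cold. The share was highest in iBAT at 1 month, at 8.90%, and lowest in lPRAT at 2 months, at 0.701%.

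Arterial and venous character was read from a list of 16 arterial and a list of 14 venous genes after thinning to 1000 UMIs the endothelial nuclei that had at least as many. The 30 to 500 shallower endothelial nuclei of each of 11 libraries were left out, 500 of 1014 in iBAT at 1 month and 219 of 391 in cold iWAT among them, so the shares cover deeper nuclei only. A nucleus leaned arterial or venous when it had at least 2 UMIs of that list and more than of the other. Over the libraries other than lPRAT at 2 months, where 9 nuclei were deep enough, 59.96% ± 6.05 (SD, n = 11 libraries) of these nuclei leaned arterial. It was 73.8% in iWAT at 22 °C and 66.3% after cold, and 51.1% to 61.8% in the others of these libraries. The arterial share rests largely on Mecom, a zinc finger transcription factor that supplied 63.4% of the arterial list's UMIs, so it is a range of a score and not a count of arterial cells. Venous-leaning nuclei were 8.63% ± 4.91 (SD, n = 11 libraries). They were 3.89%, 4.00%, 4.10% and 5.78% in the 4 iBAT libraries and 19.7% in lPRAT at 6 months (exact 95% interval 14.0 to 26.4). The mPRAT libraries lay between 5.56% and 13.2%, and iWAT had 7.33% at 22 °C and 12.2% after cold. The iBAT values thus overlapped the lowest mPRAT value and lay below lPRAT at 6 months and iWAT at this minimum. At a minimum of 1 UMI the mean was 13.1%, and iBAT at 2 months (10.2%) was above iWAT at 22 °C (9.42%). After thinning to 500 UMIs the mean was 5.20%. In lPRAT at 2 months 0 of 9 nuclei leaned venous, which allows up to 33.6%. Beyond the lists, arterial-leaning nuclei were richest against nuclei that leaned neither way in Col8a1 (284 against 21.1 CPM), Eln, the elastin gene (829.7 against 127 CPM), and Thsd7b (112 against 4.35 CPM). Venous-leaning nuclei were richest in Pcdh7 (1138 against 110.0 CPM), Myrip (507.7 against 46.5 CPM) and Sulf1 (433 against 44.3 CPM). Some genes were high in both: Eln was at 714.6 CPM in venous-leaning nuclei, and Sulf1 at 304 CPM in arterial-leaning nuclei.

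**Figure D2:**
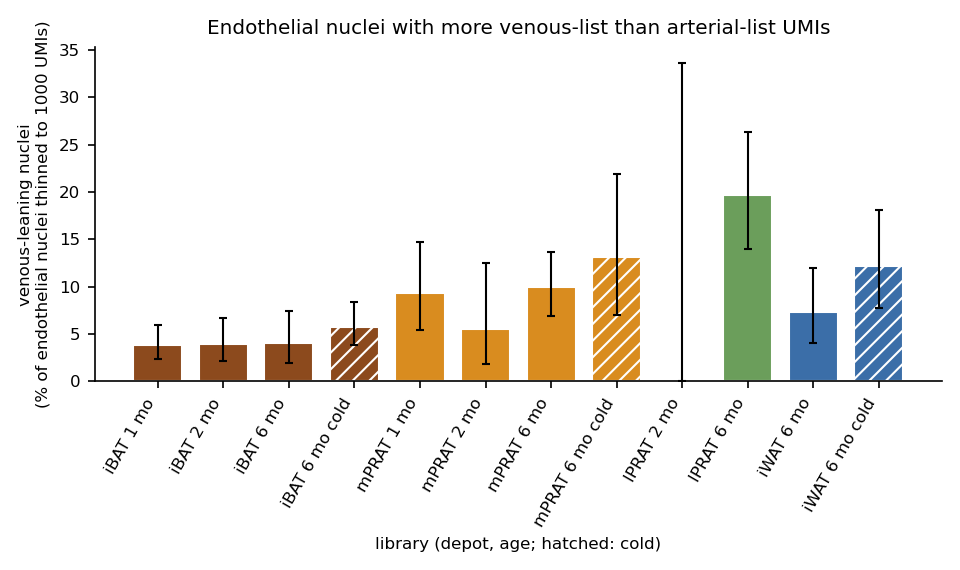
Percentage of the endothelial nuclei with at least 1000 UMIs, thinned to that number, that had at least 2 UMIs of the venous list and more than of the arterial list, with exact 95% binomial intervals. The 4 iBAT libraries sit between 3.89% and 5.78%, and lPRAT at 6 months is highest at 19.7%; lPRAT at 2 months had 0 of 9 nuclei.

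Genes were then compared between depots, temperatures and ages. UMIs of the endothelial nuclei were summed per library and 8656 genes were fitted in 1 edgeR quasi-likelihood model with additive terms for depot, age and cold over the 12 libraries, which left 5 residual degrees of freedom. The tests added a median of 12.9 prior degrees of freedom, borrowed over genes. A gene was called at a Benjamini-Hochberg adjusted p under 0.05, and fold changes below are the model's log2 values. The standard errors (SE) were worked back from the log2 value and its test statistic, so they restate the p-value. No pair of single libraries can be tested, nothing shows that libraries came from separate animals, and the residual spread holds differences between libraries and any effect of age or cold that differs between depots. Many called genes were less than 2 times as high in endothelial nuclei as in the rest of the tissue. Genes are therefore named only where their level in the higher group was at least 2 times that in the other nuclei of the same libraries, or where they belong to a listed gene group. A gene called higher in a group reaches that limit more easily there. The shares of calls and of genes tested that reach it are thus a description only. Where only genes 2 times above the other nuclei entered the model, their level was instead averaged over all 12 libraries. Library sizes and scaling were then worked out from those genes alone, so a shift shared by endothelial genes can be scaled away. Call counts of that fit are thus not like for like with those over 8656 genes.

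Between the brown depot and the medial perirenal depot, 201 genes were higher in iBAT endothelium (2.32% of genes tested) and 357 were higher in mPRAT endothelium (4.12%). Of these, 36 and 64 were at least 2 times above the other nuclei, 17.9% of the calls on either side against 22.1% and 15.7% of genes tested. The split was 219 and 225 in the 8 iBAT and mPRAT libraries alone with matched conditions as a block. iBAT endothelium carried more of the pericyte-recruiting factor Pdgfb, the capillary transcription factor Tcf15, caveolin and collagen IV. With only genes 2 times above the other nuclei in the model, 2 genes were called higher in iBAT, Slc26a10 among them. Most of the iBAT genes just named were thus not called there, in a fit whose scaling rested on those genes alone. mPRAT endothelium carried far more Meis2, Edil3 and Lepr and more of the venous list.

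Pdgfb (chr15:79995874-80014977, GRCm38) was at 384, 467, 460.0 and 471 CPM in iBAT at 1, 2 and 6 months and after cold. In mPRAT it was at 229, 114, 234 and 296 CPM. All iBAT libraries lay above all mPRAT libraries, and the difference was 1.15 (SE 0.23, adjusted p = 0.00469). Tcf15 (chr2:152143561-152149097), which with Meox2 drives fatty acid transport genes in capillary endothelium, was at 106, 83.2, 201 and 97.7 CPM in iBAT and at 71.2, 39.3, 74.6 and 53.4 CPM in mPRAT (1.09, SE 0.27, adjusted p = 0.0160). These groups did not overlap either. Of the 22 transcription factors tested, Tcf15, Sox7 (1.04) and Klf4 (1.01), a shear-responsive factor, were higher in iBAT and 0 were lower. The list's median was 0.35, against 0.04 for all genes tested. The 20 endothelial genes outside the rule had a median of 0.42, with Esam and Tie1 called higher in iBAT.

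Capillary lipid genes moved in 1 direction where they were called. Their summed level was 1.37 to 1.76 times that of the other nuclei in iBAT and 1.11 to 1.80 times in mPRAT, so much of it is common to the tissue. The list summed to 10919 to 15897 CPM in iBAT endothelial nuclei, and to 13587 and 18318 CPM in the 2 lPRAT libraries. Of 18 tested, 3 were higher in iBAT than in mPRAT, Tcf15, Lpl and Cav1, and 0 were lower, with a list median of 0.70. Cav1, which forms caveolae, was at 1093 to 1323 CPM in iBAT and 497 to 733 CPM in mPRAT (1.00, SE 0.23, adjusted p = 0.0110). The lipase gene Lpl (1.07) was at 636 CPM on average in iBAT endothelial nuclei, below the level in other nuclei of iBAT (555 to 1725 CPM) in 3 of the 4 libraries. The fatty acid translocase gene Cd36 was not called (0.39, SE 0.29, adjusted p = 0.572), with 2052 to 3215 CPM in iBAT and 1808 to 2259 CPM in mPRAT, nor was Gpihbp1 (0.88, SE 0.29, adjusted p = 0.0882).

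Of 16 basement membrane genes, Col4a2 (1.03, SE 0.23, adjusted p = 0.00808), Col4a1 (0.92) and the perlecan gene Hspg2 (0.75) were higher in iBAT, and the laminin chain gene Lama3 was lower (-1.12). Col4a2 was at 651, 685, 581 and 717.5 CPM in iBAT and 343, 289, 347 and 413 CPM in mPRAT. Among 15 genes of VEGF and angiopoietin signalling, Vegfa (1.25), Smad7 (0.74) and the receptor gene Tie1 (0.73) were higher in iBAT. Vegfa is abundant in the other nuclei too, at 858 to 1519 CPM in iBAT. Further genes higher in iBAT by the naming rule were Pth1r (1.52), the parathyroid hormone receptor, Slc26a10 (1.50), Hspb1 (1.42), the intermediate filament gene Nes (1.37), Ehd1 (1.31), Amotl2 (1.13), Samd5 (1.12) and Eva1a (1.04). Slc26a10 was at 72.4 to 174 CPM in iBAT and 17.9 to 72.8 CPM in mPRAT, and it kept its call under each alternative tried. Out of 22 fits, the main one included, Eva1a lost its call in 11, Sox7 in 9, Hspb1 in 8, Samd5 in 7, Pth1r in 6 and Tcf15 in 5.

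On the mPRAT side, Meis2 (chr2:115863064-116065839), a homeobox factor of the TALE class, was at 539, 1483, 667 and 952 CPM in mPRAT at 1, 2 and 6 months and after cold. The 4 iBAT libraries had 30.2, 32.6, 46.4 and 70.6 CPM. The difference, iBAT minus mPRAT, was -4.17 (SE 0.32, adjusted p = 1.1e-06). Levels in lPRAT (34.2 and 24.96 CPM) and iWAT (84.7 and 38.5 CPM) lay in or near the iBAT range, and Meis2 was not called between iBAT and either depot. In the other nuclei of all 12 libraries Meis2 was at 145 to 456 CPM, so its difference between mPRAT and iBAT was seen in endothelial nuclei beside a level common to the tissue. The integrin ligand gene Edil3 was at 22.2, 139, 52.7 and 131 CPM in mPRAT and at 0 or 1 count in each iBAT library (adjusted p = 6.5e-06). The leptin receptor gene Lepr was at 49.0, 21.4, 102 and 82.5 CPM in mPRAT and at 0.776 to 5.42 CPM in iBAT (-4.24, SE 0.51). In neither gene did the groups overlap. Adarb2 (-4.48), Gxylt2 (-3.82), the prostacyclin synthase gene Ptgis (-3.55), Shisa9 (-3.45), Tenm2 (-4.00) and Syt1 (-3.82) were also lower in iBAT. The groups overlapped for Tenm2 and Syt1, and Syt1 lost its call in 6 of 19 fits, the main one included. Pcdh15 (-3.58) rested on mPRAT at 6 months and 22 °C, where it reached 854 CPM against at most 26.7 CPM in the other 3 mPRAT libraries.

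Sema3d (28.6 to 73.6 CPM in mPRAT and 2 counts in all in iBAT) and Pkhd1l1 (-3.79) were higher in mPRAT as well, and both are also on the list of lymphatic endothelial genes. That list summed to 204 to 305 CPM in mPRAT and 61.2 to 76.0 CPM in iBAT endothelial nuclei, while its defining genes Prox1, Mmrn1 and Reln were at 0 by the rule and Lyve1 was at most 7.96 CPM. Of 8 tested genes on a list of kidney endothelium, 5 were higher in mPRAT: Plvap (-2.29), the gene of the fenestral diaphragm protein, Igfbp5 (-2.02), Sema5a (-1.87), Plat (-1.85) and Igfbp3 (-1.72). mPRAT lies against the kidney, and kidney epithelial genes summed to 280, 272, 7.96 and 194 CPM in endothelial nuclei of mPRAT at 1, 2 and 6 months and after cold, against at most 2.41 CPM in iBAT. Plvap in the same 4 mPRAT libraries was at 49.0, 85.8, 104 and 63.1 CPM. The part of kidney nuclei in the result was not tested.

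Of 11 venous genes tested, 6 were lower in iBAT and 0 were higher, with a list median of -1.24. Among them were Plvap, Tll1 (-1.66), the prostaglandin transporter gene Slco2a1 (-1.45), Il6st (-1.04) and Vwf, the von Willebrand factor gene (-0.97, SE 0.29, adjusted p = 0.0498). Il6st was less than 2 times above the other nuclei. Vwf was at 32.5, 50.7, 76.4 and 147 CPM in iBAT and at 158, 75.0, 126 and 228 CPM in mPRAT, so the groups overlapped. Of 13 angiocrine genes, Pdgfb and Cxcl12 (0.91) were higher in iBAT, and Nrg1 (-3.72), Bmp4 (-2.99) and Il33 (-2.35) were lower. Of 9 HOX genes, which keep positional identity along the body axis, Hoxa9, Hoxb5 (-1.47), Hoxb3 (-1.32) and Hoxa3 (-1.06) were lower in iBAT and 0 were higher. The HOX list was lower in the other nuclei of iBAT too, at 109 to 154 CPM against 313 to 586 CPM in mPRAT, and 1 of the 4 called genes was 2 times above the other nuclei. Hoxb5 was at 10.9 to 21.0 CPM in iBAT and 32.2 to 53.4 CPM in mPRAT.

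Adipocyte genes differed in the same nuclei. The adipocyte list summed to 1764 to 2339 CPM in iBAT endothelial nuclei and 856 to 1182 CPM in those of mPRAT, and of its genes outside the rule Ucp1, Cidea and Lipe were called higher in iBAT, none of them 2 times above the other nuclei. Mesothelial genes summed to 43.8 to 238 CPM in mPRAT and at most 7.24 CPM in iBAT, with 4 of 4 tested called lower in iBAT. Muscle genes summed to 5.43 to 850 CPM in iBAT and at most 14.9 CPM in mPRAT, with 2 of 2 tested called higher in iBAT. Of 7 lymphocyte genes 4 were called lower in iBAT, beside the lymphocyte level of mPRAT at 6 months and 22 °C given above. The part of these cell types in the result was not tested. Among endothelial nuclei with 0 UMIs of the 8 genes of other cell types, 269 genes were called. lPRAT at 2 months held 11 such nuclei, under the minimum of 20 for a fit, and was left out there. Leaving out that library alone gave 779 calls, against 558 with all libraries. When only genes 2 times above the other nuclei entered the model 32 were called, 2 of them higher and 30 lower in iBAT. Leaving out mPRAT at 2 months gave 312 calls, leaving out mPRAT at 6 months and 22 °C gave 333, and leaving out iBAT at 2 months gave 359.

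**Figure D3:**
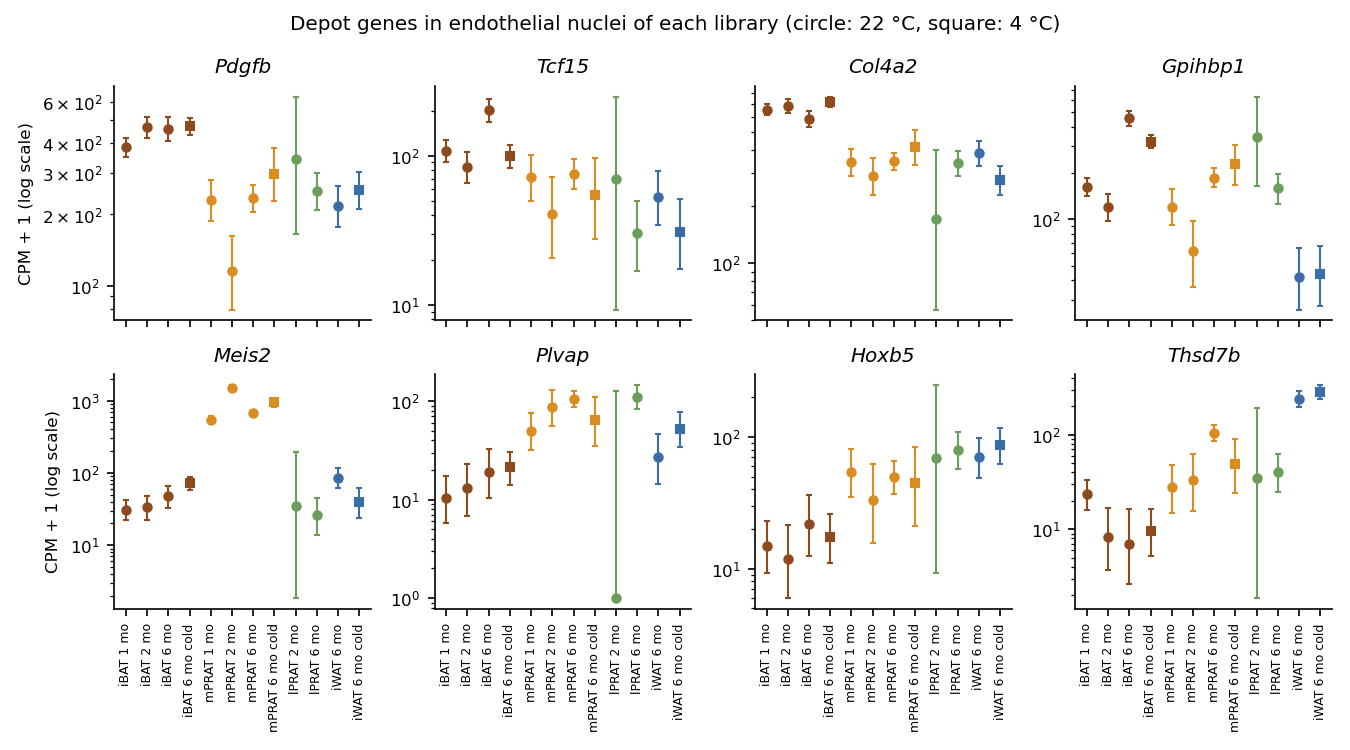
Level of 8 genes in endothelial nuclei of each library, as CPM + 1 on a log scale, with exact 95% Poisson intervals that cover counting error only. Colours mark depots, circles 22 °C and squares 4 °C. Meis2 lies between 539 and 1483 CPM in the 4 mPRAT libraries and at or below 84.7 CPM in the other 8, and Thsd7b is highest in the 2 iWAT libraries, at 239 and 283 CPM.

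Against lPRAT, 148 genes were higher in iBAT endothelium (1.71% of genes tested) and 77 were higher in lPRAT endothelium (0.89%), of which 23 and 35 were at least 2 times above the other nuclei, 15.5% and 45.5% of the calls against 22.1% and 19.2% of genes tested. Counting only endothelial nuclei with 0 UMIs of the 8 genes of other cell types left 11 in lPRAT at 2 months, under the minimum of 20 for a fit. That fit held 1 lPRAT library, so its split is not given. Because lPRAT at 2 months held 23 endothelial nuclei, this comparison rests mainly on lPRAT at 6 months. With only genes 2 times above the other nuclei in the model 14 genes were called. Without the 2-month library 351 genes were called, and without the 6-month library 86 were. Higher in iBAT by the naming rule were Fam102a (3.12), Slc26a10 (2.89), the netrin receptor gene Unc5b (2.82), Hspb1 (2.62), Cdh23 (2.50), Gng11 (2.43), Tcf15 (2.38), Stxbp6 (2.26), the endothelin receptor gene Ednrb (2.23), Trpm3 (2.20), Clic5 (2.07) and the kinase gene Sgk1 (2.03). The groups overlapped for Cdh23, Gng11, Stxbp6 and Ednrb. Mean levels in iBAT and lPRAT were 127 and 68.0 CPM for Ednrb and 109 and 45.7 CPM for Gng11. Out of 21 fits, the main one included, Sgk1 lost its call in 6 and Hspb1, Gng11 and Cdh23 in 5 each. Trpm3 was at 328, 247, 237 and 393 CPM in iBAT and at 0 and 62.4 CPM in lPRAT at 2 and 6 months (SE 0.40, adjusted p = 0.00486).

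Higher in lPRAT was the venous list again, with 6 of 11 tested, among them Selp (-4.54), Plvap (-2.28), Tll1 (-2.20), Il6st (-2.17) and Vwf (-1.84). The list's median was -2.17, against 0.11 for all genes tested. Only the 6-month library carried it: the list summed to 2440 CPM there, to 445 CPM in lPRAT at 2 months and to 455 to 788 CPM in iBAT. The other nuclei of lPRAT had 1098 and 1108 CPM of the list. Genes of other cell types were called higher in iBAT in the same comparison, the mural genes Abcc9 and Notch3, the adipocyte genes Ucp1 and Cidea and the muscle gene Ttn, and their part in the result was not tested. Selp (chr1:164115264-164150026), which encodes the leukocyte adhesion receptor P-selectin of venular endothelium, was at 171 CPM in lPRAT at 6 months, at 0 in lPRAT at 2 months, where 3 counts would be 103 CPM, and at 2.33 to 8.44 CPM in iBAT. Without lPRAT at 6 months the model's value for Selp and Plvap turned positive (4.89 and 6.29), on the 23 nuclei of the other library with 0 counts of either. Sorbs2, a cytoskeletal adaptor, was at 514 and 759 CPM in lPRAT and 70.0 to 147 CPM in iBAT (-2.53, SE 0.29, adjusted p = 0.000166), and kept its call under each alternative. Eln, the elastin gene (-2.25), was at 787.5 and 780.0 CPM in lPRAT and 102 to 417 CPM in iBAT. Also lower in iBAT were Chl1 (-4.36), Tnfrsf11a (-4.13), Ctnnal1 (-3.44), P3h2 (-3.32), A4galt (-2.94), Plscr2 (-2.83), Pik3r5 (-2.47) and Hoxd3 (-2.44). Ctnnal1, Plscr2 and Pik3r5 also turned positive (5.92, 5.90 and 6.24) without lPRAT at 6 months.

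Against iWAT, 392 genes were higher in iBAT endothelium (4.53% of genes tested) and 175 were higher in iWAT endothelium (2.02%), of which 121 and 69 were at least 2 times above the other nuclei, 30.9% and 39.4% of the calls against 22.1% and 19.6% of genes tested. The call count was 261 without iWAT at 22 °C, 209 without cold iWAT and 356 without cold iBAT. With only genes 2 times above the other nuclei in the model it was 84. Of 18 capillary lipid genes tested, 4 were higher in iBAT and 0 were lower: Gpihbp1, Tcf15 (1.72), Fabp5 (1.62) and Cav2 (1.42). The list's median was 0.56, and that of the 20 endothelial genes outside the rule was 0.71. Gpihbp1 (chr15:75596628-75599481) was at 162, 119, 455 and 320 CPM in iBAT and at 41.2 and 42.8 CPM in iWAT at 22 °C and after cold. The groups did not overlap and the difference was 3.03 (SE 0.44, adjusted p = 0.000485). Its level was 60.7 to 228 CPM in mPRAT and 342 and 158 CPM in lPRAT. Cd36 was not called, with 3602 and 3993 CPM in iWAT (-0.32, SE 0.37, adjusted p = 0.718).

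The VEGF receptor gene Kdr (1.38), the transcription factor genes Sox18 (2.76) and Ets2 (1.36), the adhesion gene Icam2 (2.34) and the thrombomodulin gene Thbd (1.86) were higher in iBAT than in iWAT. Sox18 at 1 and 2 months in iBAT was at 20.9 and 27.7 CPM, inside the iWAT range of 4.34 to 32.1 CPM, and only the 6-month iBAT libraries (151 and 127 CPM) lay above it. By the naming rule Apold1 (3.67), Hspb1 (3.65), Rpl28 (3.41) and Elob (3.31) were higher as well. Ifitm2, Rpl29, Nepn, Dusp7, Rnasek, Rtl8a and Rerg were called on at most 3 counts each over both iWAT libraries. They averaged 27.3, 27.6, 23.2, 27.5, 21.6, 20.7 and 21.9 CPM in iBAT and at most 3.24 CPM in iWAT. Rgs5, a pericyte gene, was called too (4.09), with 35.6 to 590 CPM in iBAT endothelial nuclei and 0 and 34.3 CPM in those of iWAT. The mural list as a whole summed to 180 to 815 CPM in iBAT and 107 to 148 CPM in iWAT endothelial nuclei. The mural gene Abcc9, the adipocyte genes Cidea and Ucp1 and the muscle gene Ttn were also called higher in iBAT. The adipocyte gene Cidec, the lymphocyte gene Cd247 and the Schwann cell gene Scn7a were called lower. The part of these cell types in the result was not tested.

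Ribosomal protein genes, a list added after the data were seen, stood out in this comparison: 36 of 77 tested were higher in iBAT and 0 were lower (median 1.78). They took 0.148% and 0.162% of endothelial UMIs in the iWAT libraries and 0.198% to 0.662% in iBAT. The part of this difference in the other calls was not tested.

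Higher in iWAT endothelium was Thsd7b (chr1:129273302-130219278), at 239 and 283 CPM in iWAT and 5.99 to 22.5 CPM in iBAT (-4.31, SE 0.51, adjusted p = 8.2e-05). It was at 26.7 to 104 CPM in mPRAT and 34.2 and 39.5 CPM in lPRAT, so iWAT had the highest levels. The lymphangiogenic growth factor gene Vegfc (-1.60) was at 406 and 462.5 CPM in iWAT and 55.5 to 237 CPM in iBAT. Of the venous list, 3 of 11 tested were higher in iWAT, among them Tll1 (-2.11) and Il6st (-1.16), with 0 in the other direction. HOX genes were again higher outside iBAT, with 4 of 9 tested, Hoxa9, Hoxb5 (-2.20), Hoxd3 and Hoxb3 (-1.68). The glycosphingolipid enzyme gene A4galt (-2.67) was at 139 and 156 CPM in iWAT and 5.42 to 38.8 CPM in iBAT. Kif5c (-3.24), Frmd5, Ptgis (-3.12), Lepr (-2.57), Ccdc148 (-2.47), Slc45a4 (-2.46), Cadm3 (-2.43), Plscr2 (-2.39), the serotonin receptor gene Htr2a (-2.39) and Ctnnal1 (-2.37) were the others. Frmd5 was at 86.8 CPM in iWAT at 22 °C and at 0 after cold, and its value turned positive without the 22 °C library (1.15). Cadm3 lost its call in 10 of 21 fits and Rerg in 10 of 20, the main fit included in each number.

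Cold exposure was examined next. Over the 3 depots with a cold library, 42 genes were higher after cold (0.485% of genes tested) and 50 were lower (0.578%), of which 28 and 9 were at least 2 times above the other nuclei, 66.7% and 18% of the calls against 22.0% and 16.9% of genes tested. Among the named genes, Gbp5, Gbp4, Gbp3, Tgtp2 and Irgm2, GTPase genes that interferon is known to induce, were higher after cold. No list of such genes was tested as a group. The water channel gene Aqp1 and the endothelin receptor gene Ednrb were lower.

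Gbp5 (chr3:142493978-142522344), of the guanylate-binding proteins that act in cell-autonomous defence, was at 37.5 CPM in iBAT at 6 months and 322 CPM after cold. In mPRAT it was at 48.8 and 359 CPM, and in iWAT at 63.0 and 114 CPM. The iBAT and mPRAT pairs were thus separated beyond counting error, while the intervals of the iWAT pair overlapped. The fitted cold difference was 2.39 (SE 0.34, adjusted p = 0.00535), and its values under the alternatives ran from 2.04 to 2.98. In the other nuclei Gbp5 was at most 13.9 CPM in any library. Gbp4 (chr5:105115767-105139586) was at 71.9 and 643 CPM in iBAT, 91.5 and 670 CPM in mPRAT, and 174 and 178 CPM in iWAT (2.25, SE 0.43, adjusted p = 0.0161). In the other nuclei of the cold libraries it was at 2.59 to 5.31 CPM. The room-temperature libraries of iBAT and mPRAT at 1 and 2 months were at 62.3 to 89.3 CPM, and lPRAT at 2 months, with 10 counts, was at 342 CPM.

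Gbp3 (2.15), the immunity-related GTPase genes Tgtp2 (2.38) and Irgm2 (2.01), Ifit2 (2.13) and the tryptophanyl-tRNA synthetase gene Wars (1.95) were also called. Gbp10 was called with 0 and 38.8 CPM in iBAT, 0.995 and 29.1 CPM in mPRAT, and 0 and 2.14 CPM in iWAT, on 6 counts or fewer over all 9 libraries at 22 °C. Irgm2 was at 19.5 and 130.3 CPM in iBAT, 18.9 and 97.1 CPM in mPRAT, and 28.2 and 30.0 CPM in iWAT. Wars was at 31.5 and 288 CPM in iBAT, 36.8 and 160 CPM in mPRAT, and 36.9 and 32.1 CPM in iWAT. For Irgm2 and Wars the iWAT pair thus lay close together. Gbp3 was at 24.0 and 178 CPM in iBAT, 15.9 and 155 CPM in mPRAT, and 41.3 and 42.8 CPM in iWAT. Tgtp2 was at 24.0 and 116 CPM in iBAT, 13.9 and 126 CPM in mPRAT, and 6.51 and 10.7 CPM in iWAT. Ifit2 was at 7.49 and 104 CPM in iBAT, 14.9 and 34.0 CPM in mPRAT, and 10.9 and 21.4 CPM in iWAT. Whether depots differed in their response was not tested, and each depot had 1 library per temperature at 6 months. Gbp2 (1.91), Gbp7 (1.76), Iigp1 (1.87), Oasl2 (1.84) and Cd274 (1.63), the gene of the checkpoint ligand PD-L1, were called and above the other nuclei too, and are named here after their values were seen. Guanylate-binding protein genes are close copies of each other, as are Tgtp2 and its neighbours, so reads can be split between them. Irf1, a regulator of the interferon response, was not called and had a difference of 0.51 (SE 0.29, adjusted p = 0.671). Of 13 adhesion and antigen presentation genes 0 were called with cold.

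Ccnd1, the cyclin D1 gene, was at 10.5 and 96.2 CPM in iBAT, 20.9 and 77.7 CPM in mPRAT, and 6.51 and 10.7 CPM in iWAT (2.38, SE 0.48, adjusted p = 0.0244). None of the 5 dividing-cell genes tested was called, and Mki67 had at most 13 counts in any library. Spry4 (2.13), a feedback inhibitor of receptor tyrosine kinase signalling, and Mdga2 (1.97) were higher too. Mdga2 was at 15.0 and 113 CPM in iBAT, 63.7 and 112 CPM in mPRAT, and 10.9 and 57.8 CPM in iWAT. Wfdc2 (4.99) rested on mPRAT, with 4.98 and 199 CPM, while iBAT and iWAT at 6 months had 0 counts at both temperatures. Wfdc2 was at 81.2 CPM in the other nuclei of cold mPRAT, whose kidney epithelial genes summed to 194 CPM in endothelial nuclei, and the part of those nuclei was not tested.

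Aqp1 (chr6:55336432-55348555) was at 799 CPM in iBAT at 6 months and 70.6 CPM after cold, at 328 and 72.8 CPM in mPRAT, and at 128 and 83.5 CPM in iWAT (-2.17, SE 0.42, adjusted p = 0.0178). All 3 cold libraries lay below all 9 libraries at 22 °C. Ednrb (chr14:103814625-103844402) was at 226 and 57.4 CPM in iBAT, 127 and 24.3 CPM in mPRAT, and 73.8 and 30.0 CPM in iWAT (-1.74, SE 0.34, adjusted p = 0.0181). It was lower in the cold library of each of the 3 pairs, and 1 of the 15 vascular tone and shear genes tested to be called. Tnc (-2.18), the tenascin C gene, was at 76.4 and 6.2 CPM in iBAT, 45.8 and 34.0 CPM in mPRAT, and 76.0 and 21.4 CPM in iWAT. Stxbp6 (-1.64), Trp53i11, Cdh23 (-1.83), the phosphodiesterase gene Pde4b (-1.28) and Frmd5 were lower as well. Frmd5 had 1 count in all in the cold libraries. Cd247 (-2.68) was at 184 and 10.9 CPM in iBAT, 137 and 19.4 CPM in mPRAT, and 265 and 89.9 CPM in iWAT. Cd247 encodes the zeta chain of the T cell receptor complex and is on the lymphocyte list, which summed to 2926 and 92.2 CPM in the mPRAT pair, 285 and 48.9 CPM in the iBAT pair and 877 and 165 CPM in the iWAT pair. Those sums include Cd247 itself. Over the libraries at 22 °C Cd247 averaged 146 CPM in endothelial nuclei and 19.4 CPM in the other nuclei. The lymphocyte genes Bank1, Pax5 and Ptprc and the muscle gene Ttn were among the calls lower after cold, and the adipocyte gene Ucp1 among those higher, and the part of those cell types in the result was not tested.

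Cold calls rested on few libraries. There were 12 without cold mPRAT, 27 without cold iBAT and 29 without mPRAT at 6 months and 22 °C, against 92 with all. Of the named cold genes, Gbp5 alone kept its call under each alternative tried. Out of 22 fits, the main one included, Ifit2 lost it in 13, Irgm2 in 10, Gbp3, Wars and Ccnd1 in 9 each, and Tgtp2, Aqp1 and Ednrb in 4 each. Restricted to the 6 libraries of the 3 pairs with depot as a block, 58 genes were called, and 14 of the 20 named cold genes that entered lost their call. Gbp5, Gbp10, Tgtp2, Ednrb, Cd247 and Frmd5 were still called there. With all libraries 3 genes were called when only genes 2 times above the other nuclei entered the model. Gbp4 lost its call in 6 of the alternatives, among them those without cold mPRAT (1.97) or cold iBAT (1.86).

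**Figure D4:**
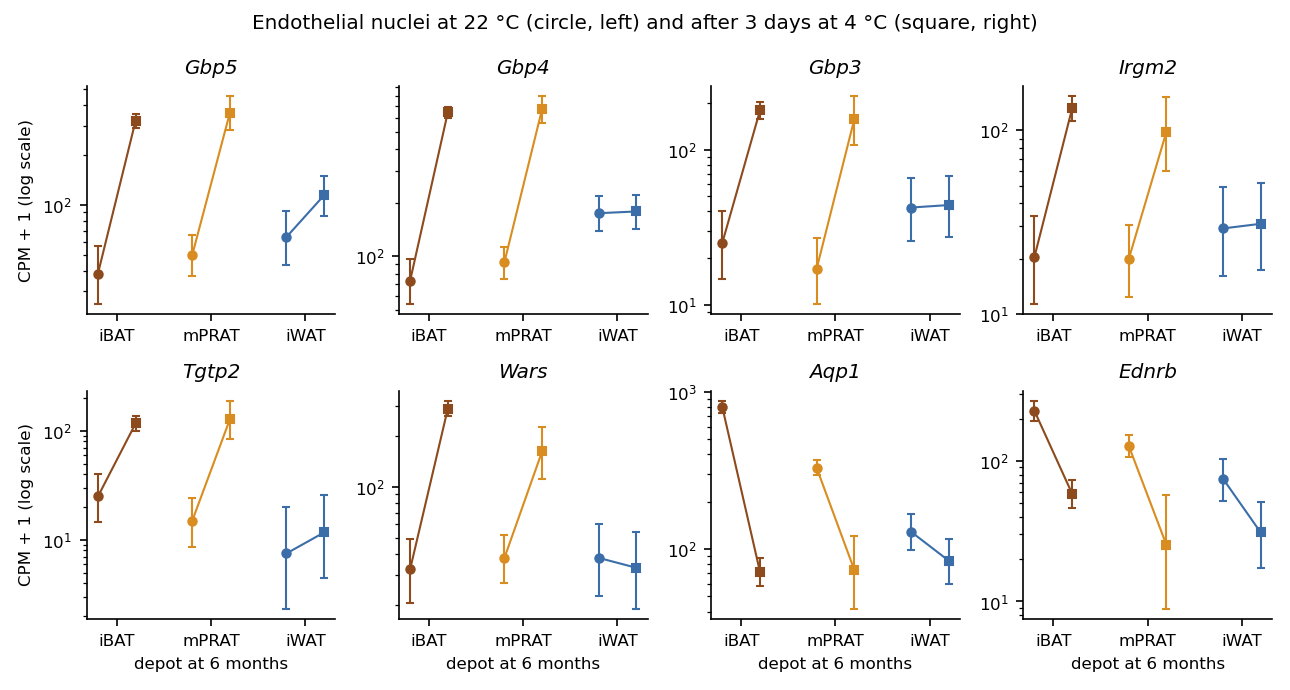
Level of 8 cold-called genes in endothelial nuclei at 6 months, as CPM + 1 on a log scale, with exact 95% Poisson intervals that cover counting error only. Each line joins the 22 °C library (circle) and the 4 °C library (square) of 1 depot. Gbp4 goes from 71.9 to 643 CPM in iBAT and from 91.5 to 670 CPM in mPRAT, and is at 174 and 178 CPM in iWAT.

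Promoters of the cold-called genes are shown because the genome windows of several share short runs of letters. RefSeq windows of 300 bases, from 250 before to 50 after the start of a gene on GRCm38.p6, were matched for 16 of the 28 genes higher after cold and above the other nuclei. The motifs, chosen after these genes were seen, were the interferon-stimulated response element core (GAAA, any 2 bases, GAAA) and the gamma-activated site (TTC, any 3 bases, GAA), each searched on both strands. The response element core was found in 6 of the 16 (37.5%), Gbp2, Gbp3, Gbp5, Gbp7, Irgm2 and Tgtp2, against 3.92% of the 6836 tested genes with a window. The gamma-activated site was found in 5 of the 16 (31.2%), against 8.02%. Over all 42 genes called higher after cold, of which 26 had a window, the shares were 23.1% and 19.2%. Both the gene set and the motifs were chosen with these genes in view, so the shares describe them and support no reading. Among the 9 genes lower after cold and above the other nuclei, the response element core was found in 0 and the gamma-activated site in 2. Gene duplication gives several of these windows a common origin, so they are not independent, and a match is a description and not a measured binding site. The windows of 4 of them follow, with both motifs in capitals.
Gbp5, chr3:142496684-142496983, plus strand: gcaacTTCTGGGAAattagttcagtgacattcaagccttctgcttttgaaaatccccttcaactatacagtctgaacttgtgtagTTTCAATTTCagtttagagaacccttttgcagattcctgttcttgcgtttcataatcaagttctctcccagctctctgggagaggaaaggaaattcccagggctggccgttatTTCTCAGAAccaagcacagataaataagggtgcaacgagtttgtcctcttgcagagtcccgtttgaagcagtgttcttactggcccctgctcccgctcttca
Gbp2, chr3:142620413-142620712, plus strand: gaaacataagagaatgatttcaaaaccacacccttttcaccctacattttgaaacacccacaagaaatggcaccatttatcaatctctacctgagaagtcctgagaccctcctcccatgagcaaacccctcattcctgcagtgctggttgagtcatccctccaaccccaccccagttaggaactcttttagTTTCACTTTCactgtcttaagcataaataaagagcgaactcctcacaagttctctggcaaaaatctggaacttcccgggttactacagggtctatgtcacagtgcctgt
Irgm2, chr11:58214727-58215026, plus strand: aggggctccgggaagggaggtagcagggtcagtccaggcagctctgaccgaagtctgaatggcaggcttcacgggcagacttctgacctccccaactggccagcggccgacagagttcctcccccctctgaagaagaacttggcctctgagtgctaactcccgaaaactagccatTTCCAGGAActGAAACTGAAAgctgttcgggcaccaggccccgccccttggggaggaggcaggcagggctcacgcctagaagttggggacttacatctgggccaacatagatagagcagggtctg
Tgtp2, chr11:49064163-49064462, minus strand: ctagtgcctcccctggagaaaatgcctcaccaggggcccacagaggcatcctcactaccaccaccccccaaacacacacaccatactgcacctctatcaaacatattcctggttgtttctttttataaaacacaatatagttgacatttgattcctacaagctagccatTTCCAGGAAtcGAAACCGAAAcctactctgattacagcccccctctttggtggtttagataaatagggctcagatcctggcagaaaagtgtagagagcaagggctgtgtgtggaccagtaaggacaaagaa
In Irgm2 and Tgtp2 the response element core began 64 and 70 bases before the start, and in Gbp2 59 bases before it. In Gbp5 it lay farther out, at 165 bases before the start.

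Between 1 and 6 months, 55 genes were higher (0.635% of genes tested) and 40 were lower (0.462%), of which 19 and 21 were at least 2 times above the other nuclei, 34.5% and 52.5% of the calls against 19.0% and 17.1% of genes tested. The balance of higher and lower calls turned with the processing. It was 20 and 47 with DESeq2, 27 and 41 among nuclei with 0 UMIs of the 8 genes of other cell types, 124 and 196 at a mitochondrial limit of 5%, and 63 and 91 in the 6 libraries of mPRAT and iBAT at 22 °C. The fits with 0 such UMIs and at the 5% limit were without lPRAT at 2 months, which held too few nuclei there. Leaving out that library alone gave 182 and 188. The 1-month libraries were mPRAT and iBAT alone. Out of 22 fits, the main one included, Smco4 lost its call in 3, Ntf3 in 10 and Ly6e and Cyp1a1 in 9 each. The calls rested most on mPRAT at 1 month, without which 3 genes were called. There were 52 without iBAT at 1 month, 55 without mPRAT at 2 months and 62 without mPRAT at 6 months and 22 °C. There were 370 calls without lPRAT at 2 months, and 1 when only genes 2 times above the other nuclei entered the model.

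Smco4 (chr9:15493432-15545260), which encodes a small membrane protein, was at 282, 198 and 74.9 CPM in iBAT at 1, 2 and 6 months and at 189, 107 and 56.7 CPM in mPRAT (-1.80, SE 0.34, adjusted p = 0.0201). The neurotrophin gene Ntf3 was at 371, 287 and 102 CPM in iBAT and 216, 182 and 71.6 CPM in mPRAT (-1.66, SE 0.37, adjusted p = 0.0414). Cdh23, an atypical cadherin gene, was at 403, 306 and 198 CPM in iBAT and 329, 122 and 94.5 CPM in mPRAT (-1.57). In these 3 genes each older iBAT and mPRAT library at 22 °C lay below the younger of its depot, while in lPRAT Cdh23 had 0 counts at 2 months and 35.4 CPM at 6 months. Spaca6 (-1.69), Map6 (-1.82), Zfp618 (-1.76), Rab31 (-1.65), Disc1 (-1.57), Tbc1d22a (-1.49), Tnfrsf21 (-1.84), Mindy4 (-1.71) and Unc45bos (-1.97) were lower at 6 months as well. Unc45bos lost its call in 13 of 22 fits and Mindy4 in 12 of 20, the main fit included in each number.

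Of 15 arterial and 13 angiocrine genes tested, Cxcl12, the chemokine gene on both lists, was called and was higher at 6 months (1.54, SE 0.31, adjusted p = 0.0296). It was at 72.8, 92.9 and 246 CPM in iBAT and 51.2, 46.4 and 157 CPM in mPRAT. Ly6e was at 91.3, 85.6 and 488 CPM in iBAT and 66.8, 39.3 and 308 CPM in mPRAT (2.03, SE 0.47, adjusted p = 0.0433). Cyp1a1, a target of the aryl hydrocarbon receptor, was at 10.1, 25.3 and 102 CPM in iBAT and 11.1, 7.15 and 41.8 CPM in mPRAT (2.60). Ifitm2 (3.33), Ifitm3 (2.39), Tubb5 (2.71), Ctsl (2.69), Hspb1 (2.40), Mfge8 (2.34) and Rps23 (2.06) were higher too. With the main fit included, Ifitm3 lost its call in 11 of 22 fits, Tubb5 in 10 of 21 and Mfge8 in 10 of 20. Ribosomal protein genes took 0.198% and 0.662% of endothelial UMIs in iBAT at 1 and 6 months and 0.236% and 0.486% in mPRAT, and 3 of 77 were called higher. The haemoglobin gene Hbb-bs (3.47), a red cell transcript, was at 8.52, 7.24 and 144 CPM in iBAT and 42.3, 10.7 and 419 CPM in mPRAT. Csmd1 (4.53) rested on mPRAT at 6 months and 22 °C, where it was at 1951 CPM against at most 96.5 CPM in the other 3 mPRAT libraries. Of 7 lymphocyte genes 4 were called higher, none 2 times above the other nuclei. Of 6 kidney epithelial genes tested, Slc34a1 was called lower at 6 months. Kidney epithelial genes summed to 280 CPM in mPRAT at 1 month, and the lower sum at 6 months is given above. The part of these cell types in the result was not tested. None of 11 venous, 18 capillary lipid or 15 VEGF and angiopoietin genes was called with age.

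**Figure D5:**
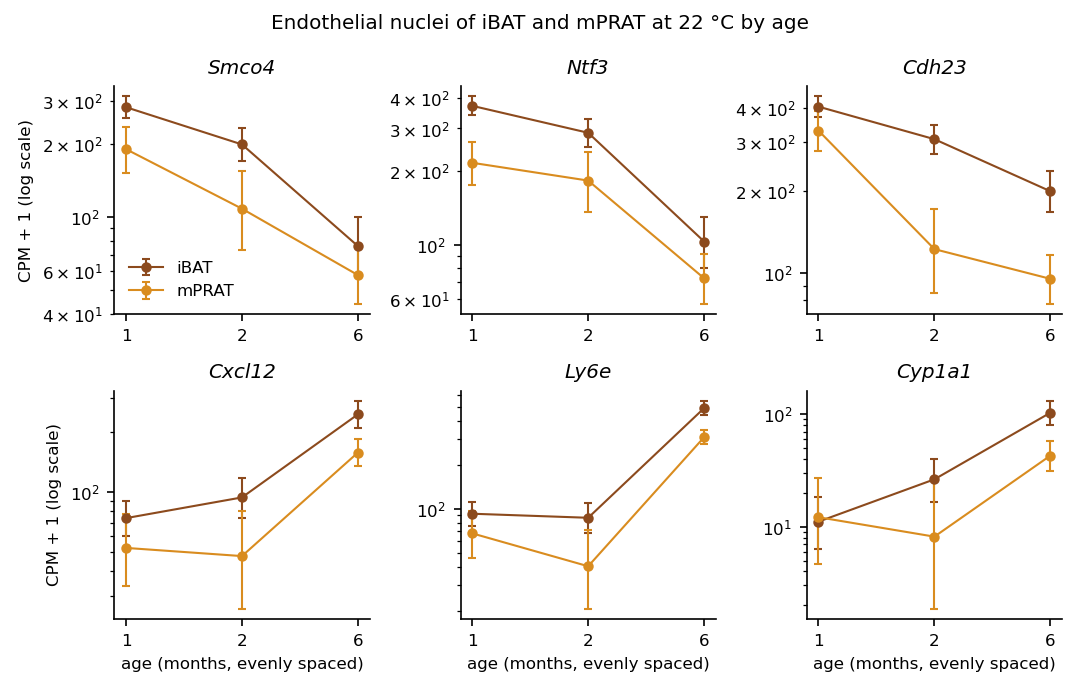
Level of 6 age-called genes in endothelial nuclei of iBAT and mPRAT at 22 °C and 1, 2 and 6 months, as CPM + 1 on a log scale with evenly spaced ages, with exact 95% Poisson intervals that cover counting error only. Ntf3 goes from 371 to 102 CPM in iBAT and from 216 to 71.6 CPM in mPRAT between 1 and 6 months, and Ly6e from 91.3 to 488 and from 66.8 to 308 CPM.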

How the data were processed

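The authors deposited UMI counts per gene and barcode for 12 libraries of sorted nuclei (10x 3′ chemistry). Cell Ranger 7.0.0 and mm10 are named in the submitters' processing notes; whether intronic reads were counted is not given in the sources used here. Nothing shows that libraries came from separate animals, so p-values measure the spread between these libraries.

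Barcodes with fewer than 300 genes, or with over 10% mitochondrial UMIs, were set aside (Python 3.11.15, scanpy 1.11.5, numpy 2.4.6, scipy 1.17.1, pandas 2.3.3, matplotlib 3.10.9). Counts of the endothelial nuclei were summed per library and tested with edgeR 4.0.16 (R 4.3.3; limma 3.58.1): filterByExpr, TMM, quasi-likelihood, Benjamini-Hochberg over 8656 genes. Named genes are the 12 with the largest change in each direction among those called, at least 2 times above the other nuclei and at 20 CPM or more in the higher group, without predicted genes and genes of the rule; members of listed groups are named too. Doublets were left in as the rule gives them; scrublet scores removed 392 nuclei (8.38%) in an alternative, and DESeq2 1.42.0 was another. On simulated counts, the genes changed were drawn from those above 20 CPM. At log2 sizes of 1 and 2 the test recovered 46% and 94% of them for iBAT against mPRAT (7981 genes tested). It recovered 22% and 90% for cold (8050 genes tested) and 20.2% and 82% for age (8019 genes tested). In that order, 7, 6 and 16 unchanged genes were called. For age these stood beside 20 and 82 changed genes called. Gene positions are from GENCODE on GRCm38, and promoters from RefSeq.

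The members and gene lists were chosen with earlier results of these data known, and the ribosomal list and the motifs were added after their values were seen. Some genes that meet the naming rule are not reported here.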

Additional observations from a re-analysis of the deposited data

Results flagged for a closer look

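Rgs5, a pericyte gene, differed by -1.349 (log2 of CPM + 1, cold over 22 °C) in iBAT endothelial nuclei, from 590 to 231 CPM, and by 5.14 in iWAT, from 0 to 34.3 CPM, where the added 1 CPM sets the size. The directions were opposite in 1 pair of libraries each, and the difference was not tested.

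Barcodes over the mitochondrial limit entered no comparison. In cold iWAT 46.97% of them, 31 of 66 (exact 95% interval 34.6 to 59.7), met the endothelial rule. In iWAT at 22 °C it was 8.72%, 15 of 172. Shares were high in iBAT too, 20.6% (52 of 253) at 6 months and 25.3% (37 of 146) after cold. At 1 and 2 months iBAT had 3 of 10 and 3 of 12. The mPRAT and lPRAT libraries had 0.789% to 4.64%.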

How the results depend on the processing

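With all genes and libraries, 558 genes were called for iBAT against mPRAT, 225 against lPRAT, 567 against iWAT, 92 for cold and 95 for age. In that order, no filter on low counts gave 1028, 468, 887, 281 and 423. Only genes 2 times above the other nuclei, which were fewer and scaled on themselves alone, gave 32, 14, 84, 3 and 1. Nuclei with 0 UMIs of the other cell types' genes gave 269, 100, 182 and 42 for the first 4. At least 5 endothelial UMIs gave 352 against lPRAT and 292 for age, and a mitochondrial limit of 5% gave 320 for age. Removing scrublet scores gave 148 against lPRAT, 40 for cold and 25 for age. DESeq2 gave 48 for cold, the 6 libraries of the cold pairs with depot as block 58, and the 6 libraries of mPRAT and iBAT at 22 °C 154 for age.

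Leaving out 1 library at a time gave 312 to 811 calls against mPRAT, 86 to 351 against lPRAT, 209 to 804 against iWAT, 12 to 153 for cold and 3 to 370 for age; the lowest came without mPRAT at 2 months, lPRAT at 6 months, cold iWAT, cold mPRAT and mPRAT at 1 month, and the cause was not tested. Among values against lPRAT, Selp ran from -5.42 to 4.89, Ctnnal1 from -3.98 to 5.92, Plscr2 from -3.42 to 5.90, Pik3r5 from -2.85 to 6.24 and Plvap from -2.63 to 6.29, each positive only without lPRAT at 6 months, which leaves 23 lPRAT nuclei. Frmd5 against iWAT ran from -4.02 to 1.15, and was 3.62 with 0 UMIs of the other cell types' genes and 4.46 with at least 5 endothelial UMIs.

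The cold difference in endothelial share with 0 such UMIs was 0.818 points in mPRAT, 0.0849 in iBAT and 3.88 in iWAT, and after thinning 2.26 in iBAT and 1.66 in iWAT. The difference of 6 minus 1 months was -2.29 with at least 5 UMIs and -1.47 thinned in mPRAT, and -3.94 with 0 such UMIs, -5.81 with at least 5 and -5.32 thinned in iBAT. The arterial-leaning share was 70.6% at a minimum of 1 UMI and 42.8% after thinning to 500 UMIs.

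The labels give no replicate numbers, so libraries could be paired only by condition: with matched conditions as a block over the 8 iBAT and mPRAT libraries, 444 genes were called. Small summed UMIs, above all in lPRAT at 2 months and cold mPRAT, limit what low genes can show.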
